A study of Mus musculus with 2 samples.

Results

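The cells described here are 192 smooth muscle cells of the control mouse aorta in which 3 or more transcripts of Pcp4 were counted. They were taken from the 4141 cells that the authors called vascular smooth muscle cells (VSMC) in the library of PBS-injected mice, so they made up 4.64% of that class (exact 95% interval 4.02 to 5.32%), and the whole series holds 10477 cells. The remaining 3949 control smooth muscle cells, with 0 to 2 Pcp4 transcripts, served as the comparison. A transcript is counted as a unique molecular identifier (UMI), a random tag that lets PCR copies of the same captured molecule be counted as 1. The members were chosen by their Pcp4 count, so their Pcp4 level is a description and is used as support for nothing.

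Single-cell transcriptomes had been prepared from the abdominal aorta, between the left renal artery and the aortic bifurcation, of wild-type C57BL/6J mice given PBS or LCWE by peritoneal injection 2 weeks earlier. LCWE is the Lactobacillus casei cell wall extract used to produce a Kawasaki disease-like vasculitis in mice. PBS is the buffer given to controls, and both groups were labelled wild type. The PBS library pooled 9 aortas and the LCWE library pooled 7, with cells released by enzymes and dead cells removed. With 1 pooled library per group and no label that ties a cell to a mouse, cells are not replicates. No p-value is therefore given, and every interval below covers counting error only, not variation between mice. The Pcp4-high cells cannot be assigned to 1 mouse or to several.

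Pcp4 encodes a small protein, also known as PEP-19, that binds calmodulin and alters how fast calmodulin takes up and releases calcium. Calmodulin loaded with calcium activates myosin light chain kinase, the step by which a smooth muscle cell starts to contract. The other genes proposed as markers of these cells have different roles. Pax1 encodes a transcription factor of the embryonic sclerotome, Des the muscle intermediate filament desmin, Kcna5 the voltage-gated potassium channel Kv1.5 and Sparcl1 a secreted matrix-associated glycoprotein.

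The windows of 250 bases before the annotated starts of Pcp4, which chose the cells, and of Gdf10 are shown. Gdf10 had the highest depth-weighted ratio among the called genes with at least 200 UMIs that met the naming rule, and its level was higher in each bin of Pcp4 counts than in the one before. Both come from RefSeq (GRCm38.p6, plus strand), at chr16:96467356-96467605 and chr14:33923337-33923586, and capitals mark CG dinucleotides.
Pcp4: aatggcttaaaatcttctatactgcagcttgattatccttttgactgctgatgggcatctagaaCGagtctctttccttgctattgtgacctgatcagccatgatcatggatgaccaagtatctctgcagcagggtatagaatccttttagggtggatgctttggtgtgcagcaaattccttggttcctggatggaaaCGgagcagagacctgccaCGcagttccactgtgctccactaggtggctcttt
Gdf10: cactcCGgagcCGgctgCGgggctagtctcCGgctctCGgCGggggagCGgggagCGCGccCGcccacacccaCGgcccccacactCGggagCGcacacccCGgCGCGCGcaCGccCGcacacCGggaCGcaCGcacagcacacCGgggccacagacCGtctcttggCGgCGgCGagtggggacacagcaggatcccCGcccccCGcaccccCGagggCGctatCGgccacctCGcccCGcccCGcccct
The Pcp4 window holds 3 CG dinucleotides and is 46.8% G and C, and the Gdf10 window holds 35 and is 78.8% G and C. The median over 32851 windows of the same length is 6 CG dinucleotides and 52.4% G and C, so the 2 windows lie on opposite sides of it. The CArG box, the motif bound by serum response factor in many contractile genes, reads the same on both strands and was found 0 times in either window, against 1.47% of all windows. A search result of this kind describes the letters of the window and nothing else.

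Pcp4 counts were spread unevenly over control smooth muscle. Of the 4141 cells, 3725 (90.0%) had 0 Pcp4 UMIs and 224 (5.41%) had 1 or 2. The members held from 3 to 29 UMIs with a median of 5, and 97 of them had 3 to 5, 64 had 6 to 10 and 31 had over 10. They held 1321 of the 1624 Pcp4 UMIs of the control library, or 81.3%, and smooth muscle as a whole held 99.5%. Expressed in CPM, a gene's UMIs scaled to a total of 1000000 UMIs over a set of cells, the level was 524 in the members and 5.79 in the comparison cells, a gap that the rule itself makes. Just inside the threshold were 32 cells with exactly 3 UMIs, and just outside it 71 cells with exactly 2.

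Outside smooth muscle, Pcp4 was nearly absent. In the 1245 other control cells, 8 UMIs were counted (0.876 CPM) and 6 cells had any, a share of 0.482% (exact 95% interval 0.177 to 1.05%) at a median depth of 5882 UMIs per cell. Fibroblasts had 3 UMIs in 868 cells, and the lymphocytes (T, NK and innate lymphoid), which should lack the gene, had 2 in 75 cells. That lymphocyte share, 2.67% (0.325 to 9.30%) at a median depth of 4374, rests on few cells. In fibroblasts the share was 0.346% (0.0713 to 1.01%) at a median depth of 6215. The 5.41% of smooth muscle cells with 1 or 2 UMIs lies within the lymphocyte interval and above that of the fibroblasts, at a greater depth in smooth muscle, and its part from free RNA was not tested. Of the 868 fibroblasts 0 reached 3 UMIs, which by the limit of 3 cells allows a share of up to 0.346%, and 1 of 246 endothelial cells did.

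The members were not simply the deepest cells. Their median total was 11502.5 UMIs (lowest 7223, highest 34226), against 11892 (1941 to 41518) in the comparison cells, and the median number of genes was 3297 against 3389. Control smooth muscle was cut into 10 bins of equal cell number by each cell's UMIs other than Pcp4. Members made up 2.89 to 5.80% of the cells in 9 of the bins, and 41 of 414 cells, 9.90% (exact 95% interval 7.2 to 13.2%), in the second shallowest. The median share of mitochondrial UMIs was 6.61% in members and 7.07% in the others, and the authors' doublet score had medians of 0.0728 and 0.0754. The plot of cells by Pcp4 count shows this distribution.

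**Figure D1:**
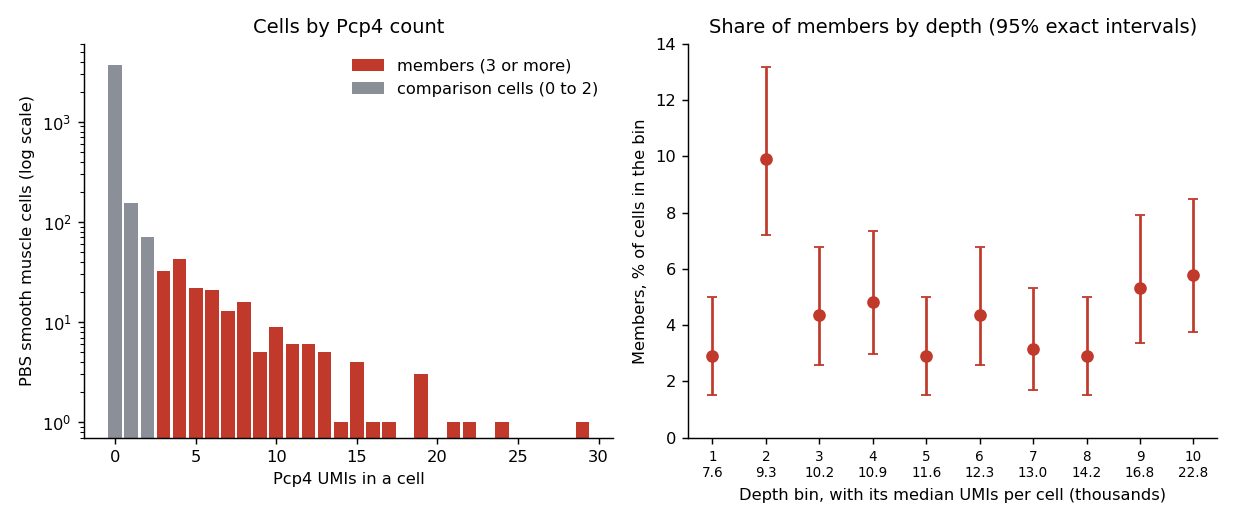
Left, number of control (PBS) smooth muscle cells (log scale) by Pcp4 UMIs in the cell, with members red and comparison cells grey. Right, members as a percentage of the cells in each of 10 depth bins, with exact 95% intervals (counting error only) and each bin's median UMIs per cell below its number. The second bin, at 9.90%, has the highest share, and its interval overlaps those of bins 4, 9 and 10.

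On the authors' own two-dimensional map of the cells (UMAP), the members lay mostly along the upper edge of the smooth muscle cloud and did not form a separate island. Among the 15 nearest smooth muscle neighbours of a member, 23.3% on average were members, against 3.88% around a comparison cell and 4.64% in the class. For 45 of the 192 members, no neighbour was a member. The map was built by the authors from the same counts, so these shares describe the cells and are no independent evidence. All members bore the authors' fine name VSMC_1, as did every cell of the class.

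**Figure D2:**
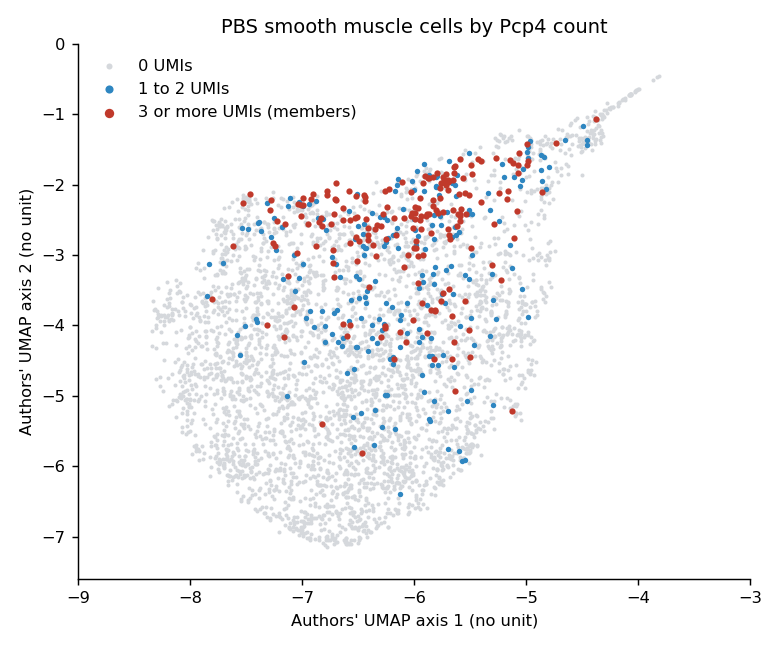
Control smooth muscle cells on the authors' UMAP axes (no unit), grey with 0 Pcp4 UMIs, blue with 1 to 2 and red with 3 or more. Red and blue points crowd the upper edge, and points of both colours also lie scattered in the body of the cloud. Outside the frame fall 3 comparison cells.

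The smooth muscle label held against its defining genes. Acta2, smooth muscle actin, stood at 22827 CPM in the members and 24515 in the comparison cells, and Tagln, an actin-binding protein of smooth muscle, at 16870 and 15903. The marker genes proposed for the Pcp4-high cells were all at higher levels in them, but by different amounts and with different stability. They had been proposed from these same data, so their higher levels are a description and no independent evidence. Kcna5 had 18.6 CPM in members and 5.77 in comparison cells, a ratio of 3.23 (95% interval 2.32 to 4.40). The Kv1.5 gene was thus the one marker with a large ratio, and it held at 3.33 in the shallower 5 depth bins and 3.11 in the deeper 5. Kcna5 UMIs were found in 33 members (17.2%) and 215 comparison cells (5.44%), and in 0 of 75 lymphocytes, which by the limit of 3 cells allows a share of cells with a UMI of up to 4%.

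Des and Sparcl1, which are abundant, differed by about 1.5-fold. Des had 635 CPM against 426, a ratio of 1.49 (1.42 to 1.57), and a median of 5 UMIs per member against 0 per comparison cell. Desmin was higher in members in 9 of the 10 depth bins. Sparcl1 had 374 CPM against 244, a ratio of 1.53 (1.43 to 1.64), also with higher values in 9 of 10 bins. One member held 63 of the 944 Sparcl1 UMIs, and without that cell the ratio was 1.44.

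Pax1 did not behave alike across depth. It had 69 UMIs in members, or 27.3 CPM, against 16.8 CPM in comparison cells, a ratio of 1.63 (1.25 to 2.08). In the shallower 5 bins the ratio was 3.32 (2.41 to 4.50), whereas in the deeper 5 it was 0.70 (0.418 to 1.10), in the other direction. Members were higher in 4 bins and lower in 6, and their level ran from 0 CPM in bin 5 to 105 in bin 4. Pax1 was counted in 29 members, of which 1 held 10 UMIs, and without that cell the ratio was 1.40. Seen from the other side, 10.0% of shallow cells with Pax1 were members (6.04 to 15.3%) against 4.49% of shallow cells without it. Among deep cells these shares were 3.83% and 4.37%.

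Across all genes, 11643 had at least 50 UMIs in the 2 sets of cells together, Pcp4 left out. A gene was called higher or lower when its CPM ratio was at least 1.5-fold, its interval lay wholly on that side of 1, and the ratio was also at least 1.5-fold after the comparison cells were weighted to the members' depth bins. By this rule 228 genes (1.96%) were higher in the members and 210 (1.8%) were lower, 438 (3.76%) in all. The interval lay wholly past 1.5-fold for 44 (0.378%) and 37 (0.318%). Of the 5 proposed markers, Kcna5, Sparcl1 and Pax1 met the rule, Des did not, and Pcp4 was left out.

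The 15 genes with the highest depth-weighted ratios, among called genes with at least 200 UMIs, included several secreted signalling proteins and their regulators. Gdf10, a ligand of the TGF-β superfamily also known as BMP3B, stood first. It had 77.7 CPM in members and 20.3 in comparison cells, a ratio of 3.82 (3.27 to 4.46), and UMIs in 46.4% of members against 16.0%. Gdf10 was higher in members in 10 of 10 depth bins, with ratios of 3.70 and 3.87 in the shallower and deeper 5. After cells were thinned to 5000 UMIs each (85 comparison cells fell short and were left out), Gdf10 was detected in 27.6% of members (21.4 to 34.5%) and 7.84% of comparison cells (7.01 to 8.73%). Gdf10 reached 819 CPM in control fibroblasts and had 0 UMIs in the 75 lymphocytes.

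Rspo3, a secreted amplifier of Wnt signalling, had 20.2 CPM against 6.34, a ratio of 3.19 (2.32 to 4.29), with 1.68 in the shallower and 5.11 in the deeper bins. Kitl, the ligand of the receptor Kit, had 21.8 CPM against 9.40, a ratio of 2.32 (1.72 to 3.07). Gdf10, Rspo3 and Kitl thus encode secreted or cell-surface signals of different pathways.

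Matrix and membrane genes were also among the 15. Sdc3, a heparan sulfate proteoglycan of the cell surface, had a ratio of 3.03 (2.38 to 3.80). Matn4, a matrilin of the extracellular matrix, had a ratio of 2.60 (2.00 to 3.35), and Smoc2, a secreted calcium-binding matricellular protein, 2.30 (1.73 to 3.01). Smoc2 rested in part on 1 member with 17 of its 60 UMIs, without which the ratio was 1.66. Itm2a, a type II membrane protein, had a ratio of 3.32 (2.29 to 4.70), but 1 member held 14 of its 38 UMIs and without it the ratio was 2.12. Tmem176b, a membrane protein, was the most abundant of the 15, with 163 CPM against 64.2, a ratio of 2.54 (2.29 to 2.82) and UMIs in 79.2% of members against 42.2%.

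Transcription factors and signalling genes were found there too. Gata3, a zinc-finger transcription factor, had a ratio of 2.77 (1.92 to 3.90), with 5.24 in the shallower and 1.93 in the deeper bins. Egr2, an immediate early transcription factor, had 2.48 (1.80 to 3.34) and, without the member holding 12 of its UMIs, 1.88. Rasd1, a Ras-related GTP-binding protein induced by glucocorticoids, had 70.9 CPM against 26.5, a ratio of 2.67 (2.27 to 3.13). Pdzrn4 (2.88) and Sertad4 (2.39) were further members of the set. All 15 were higher in both the shallower and the deeper bins, and for 12 the interval lay above 1 in both. The 15 were picked by their ratio over these same cells, so these counts are a description only. The ratio plot shows 14 of the 15 with the genes that were lowest.

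**Figure D3:**
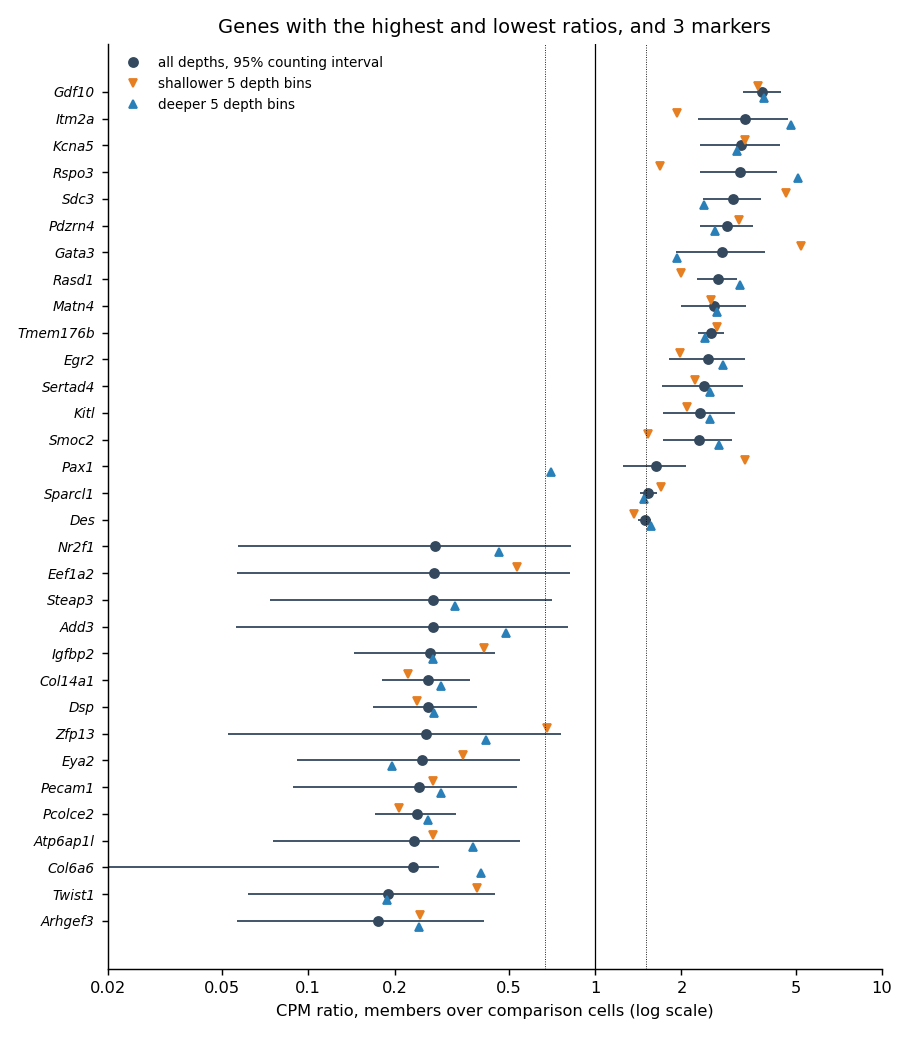
CPM ratio of members over comparison cells (log scale) for 14 of the 15 highest and the 15 lowest genes and for Pax1, Sparcl1 and Des, with 95% counting intervals. Triangles give the shallower (orange) and deeper (blue) 5 depth bins, where enough UMIs were counted, and dotted lines mark 1.5-fold. Triangles of Gdf10 and Kcna5 nearly coincide, and those of Pax1 lie on opposite sides of 1; the Col6a6 point is its bound.

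At the low end stood genes of the matrix and of other kinds. Pcolce2, an enhancer of procollagen processing, had 15.9 CPM in members and 66.1 in comparison cells and was 4.17-fold lower (3.05 to 5.84). Col14a1, a fibril-associated collagen, had 13.5 CPM against 51.4 and was 3.81-fold lower (2.72 to 5.52). Col6a6, a collagen VI chain, had 0 UMIs in members and 262 in comparison cells. With the members raised to the floor of 3 UMIs it was 4.33-fold lower, a value set by that floor. Dsp, the desmosomal plaque protein desmoplakin, had 9.91 CPM against 37.9 and was 3.83-fold lower (2.59 to 5.93). Dsp was at 0.822 CPM in control fibroblasts, unlike Pcolce2 (888) and Col14a1 (1146).

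The other genes of the lowest 15 were rare in members, with 3 to 14 UMIs each. Arhgef3, a guanine nucleotide exchange factor, had 5 UMIs in members and 577 in comparison cells and was 5.72-fold lower (2.44 to 17.7). Twist1, a mesenchymal transcription factor, had 5 and 530 UMIs and was 5.25-fold lower (2.24 to 16.2), or 8.72-fold without the member that held 2 of the 5. Eya2, a transcriptional coactivator, was 4.0-fold lower (1.83 to 11). Igfbp2, which binds insulin-like growth factors, was 3.77-fold lower (2.24 to 6.93), but 1 comparison cell held 120 of its 1067 UMIs, and in the middle 4 depth bins alone its log2 ratio was 0.63, in the other direction. Pecam1, an endothelial adhesion molecule at 3395 CPM in control endothelium, was 4.11-fold lower (1.88 to 11.3), with 6 UMIs in members. Nr2f1, Zfp13, Eef1a2, Steap3, Add3 and Atp6ap1l were 3.60-fold to 4.28-fold lower on 3 to 5 UMIs in members. Of the 15 genes, 10 had enough UMIs for values in both depth groups. All 10 were lower in both, 6 of them with the interval below 1 in both. These genes too were picked by their ratio over the same cells, so the counts are a description only.

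Cells with 1 or 2 Pcp4 UMIs, which the rule leaves among the comparison cells, offered a look at the same genes in cells that were not members. Set against the 3725 cells with 0, all 15 of the highest genes were also higher in these 224 cells, 11 of them with an interval above 1, with a median ratio of 1.62. Of the 15 lowest, 14 were lower, 10 of them with an interval below 1, with a median of 1.90-fold; Zfp13 was the exception, at a ratio of 1.23 (0.702 to 2.01). The share of all compared genes that differ between these cells and those with 0 is not given here, so the counts are a description only. Pcolce2 was at 69.1 CPM with 0 Pcp4 UMIs, 18.4 with 1 or 2, and 15.9 in members. Kcna5 stood at 5.05 CPM with 0 and 17.1 with 1 or 2. The 71 cells with exactly 2 had 20.6 CPM of Kcna5 and the 32 with exactly 3 had 6.88 (1.42 to 20.1), so no step in Kcna5 was visible at the threshold. Gdf10 was likewise at 75.0 CPM in cells with exactly 2 and 36.7 in cells with exactly 3.

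Some genes were picked because their level was higher in each bin of Pcp4 UMIs than in the one before. Their rise over the range of Pcp4 counts is set by that choice and is no evidence. The share of all genes that rise in this way is not given here. Gdf10 went from 18.7 CPM at 0 UMIs through 46.3, 62.7 and 82.9 to 115 CPM in cells with over 10. Rasd1 went from 25.5 CPM through 43.0, 51.9 and 67.3 to 140 CPM. Itih3, a chain of the inter-alpha-trypsin inhibitors, was at 4.91 CPM with 0 Pcp4 UMIs and 4.93 with 1 or 2. With over 10 it was at 17.5 CPM (7.05 to 36.1), on 7 UMIs. Brwd3, a bromodomain protein, was at 9.35 CPM with 0 and 27.6 CPM (13.8 to 49.3) with over 10, the latter on 11 UMIs. The markers, which were not picked in this way, did not follow this course. Kcna5 stood between 14.4 and 22.5 CPM in every bin with Pcp4, and Des was at 681 CPM with 1 or 2 UMIs and 592 with 3 to 5.

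**Figure D4:**
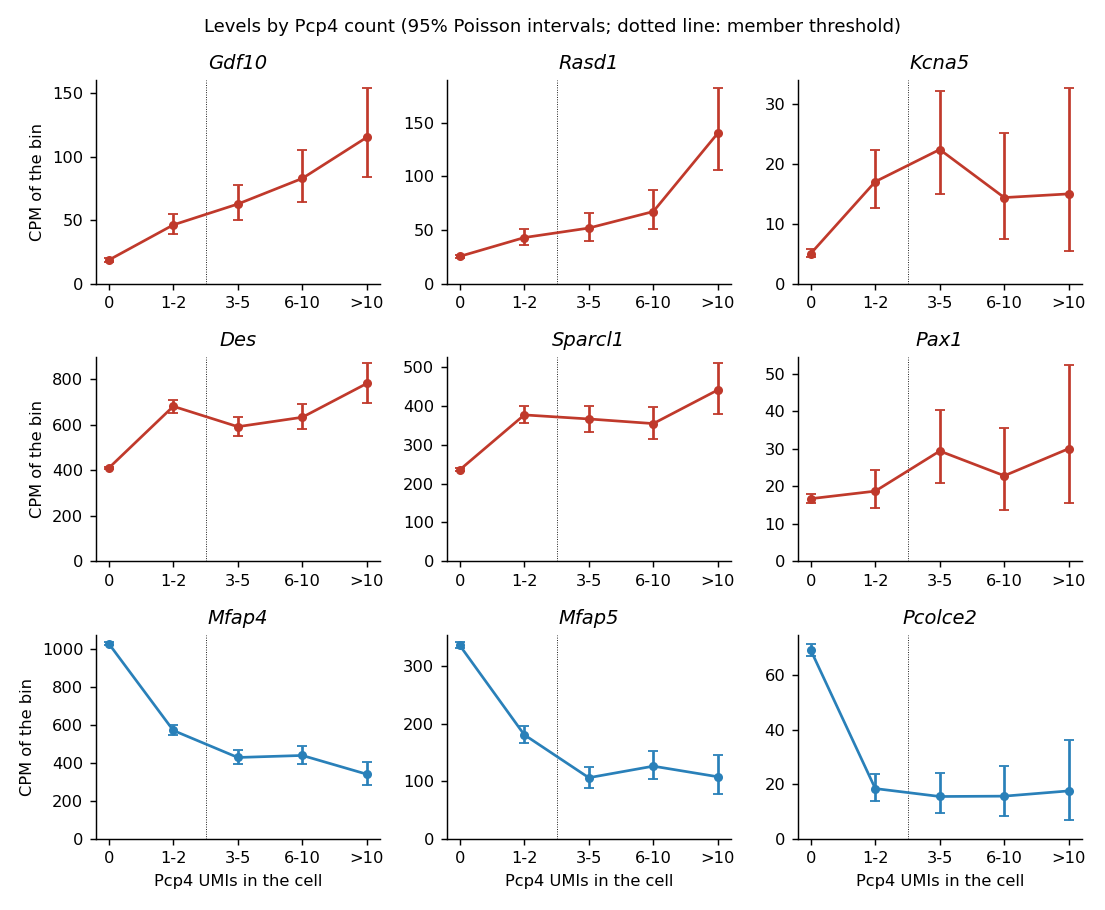
CPM of 9 genes in control smooth muscle cells grouped by Pcp4 UMIs, with exact 95% Poisson intervals (counting error only); the dotted line separates comparison cells from members. Gdf10 and Rasd1, among the genes picked for such a rise, climb over every bin, while Mfap4, Mfap5 and Pcolce2 are already low in cells with 1 or 2 UMIs.

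The gene lists that follow can be read against the 1.96% of all compared genes called higher and the 1.8% called lower, shares that come to less than 1 gene each way in every list. The contractile apparatus was at nearly the same level in both sets. Of 20 measured contractile genes, 0 were called higher and 0 lower, their log2 ratios ran from -0.23 to 0.09, and the median was -0.05 (median of all genes compared, -0.00). Myl9 and Myl6, the regulatory and essential light chains of myosin, had ratios of 0.945 and 0.944. Among 12 genes of intermediate filaments and dense bodies, 0 were called, with Des at the top beside Sorbs2 (136 against 90.8 CPM) and Vim, vimentin, at a ratio of 0.862. Desmin and vimentin, both intermediate filament proteins, thus lay on opposite sides of 1.

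Calmodulin and calcium handling genes gave 1 call among 15. Pln, phospholamban, which restrains the calcium pump of the sarcoplasmic reticulum, had 10.3 CPM against 6.26, a ratio of 1.65 (1.06 to 2.46). Calm2, a gene for the calmodulin that Pcp4 protein binds, had a ratio of 1.12 (1.06 to 1.17). Atp2a2, the pump itself, was at 0.894.

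Of 19 ion channel genes, 3 were higher and 0 lower, a share above the 1.96% of all genes that carried the call, though the list's median log2 ratio was -0.01. Besides Kcna5 these were Kcnj8, the pore of an ATP-sensitive potassium channel (58.3 against 33.6 CPM, ratio 1.73, 1.45 to 2.05), and Kcnq5, a voltage-gated potassium channel (10.7 against 4.97 CPM, ratio 2.15, 1.39 to 3.21). Kcnmb1, the beta subunit of the BK calcium-activated potassium channel, had a ratio of 0.918. Kcna5 had been proposed as a marker from these data, so its place in the list is no independent evidence.

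Among 27 vasoactive receptors and signalling genes, 2 were higher and 1 lower, with a median log2 ratio of 0.12. Adra1a, the alpha-1A adrenergic receptor through which noradrenaline constricts vessels, had 30.5 CPM against 15.4, a ratio of 1.99 (1.55 to 2.51), with 1.98 and 2.00 in the shallower and deeper bins. Ednrb, an endothelin receptor, had a ratio of 2.72 (1.04 to 6.01) on 7 UMIs in members. Npr3, the clearance receptor of natriuretic peptides, was 1.60-fold lower (1.04 to 2.60). Rgs5, a regulator of G-protein signalling and a pericyte marker, had 6270 CPM against 4764, a ratio of 1.32 that did not meet the call.

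The matrix list held calls on both sides, with 3 of 39 genes higher and 4 lower and a median log2 ratio of -0.10. The microfibril-associated genes were among the lower. Mfap4 had 419 CPM against 1002 and was 2.39-fold lower (2.25 to 2.55), with a median of 3 UMIs per member and 11 per comparison cell. Mfap5 had 113 against 327 and was 2.89-fold lower (2.57 to 3.26). Both were lower in members in 10 of 10 depth bins, as was Pcolce2. Prelp, a leucine-rich proteoglycan, was 2.05-fold lower (1.73 to 2.45), and Col14a1 was the fourth. The higher genes were Sparcl1, the basement membrane protein Nid1 (80.5 against 46.7 CPM) and the cartilage and tendon matrix protein Comp (32.1 against 16.6 CPM). Eln, elastin, was at 5645 against 6855 CPM and not called.

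Of 23 genes of TGF-β and BMP response, 2 were higher and 1 lower. The ligand Bmp2 was higher (ratio 1.53, 1.20 to 1.93), and Ltbp2, a microfibril-associated latent TGF-β binding protein, was 2.35-fold lower (1.71 to 3.31). The median log2 ratio of the list was 0.18. Bmp2 was at a ratio of 1.11 in the shallower and 1.83 in the deeper bins. Ctgf, a widely used TGF-β target, had a ratio of 1.02. The Notch list gave 0 calls among 11, with Hes1 at a ratio of 1.49 (1.35 to 1.65) and Notch3 at 1.06.

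Genes that record a cell's position along the body gave calls on both sides. Of 28 Hox genes, Hoxd9 was higher (ratio 1.54, 1.08 to 2.13) and Hoxb7 was 2.19-fold lower (1.21 to 4.41). The most abundant, Hoxa10 and Hoxc10, had ratios of 1.11 and 1.30. Of 24 other positional transcription factors, Pax1 was higher, and Twist1 and Scx, the tendon factor scleraxis, were lower. Scx was 1.56-fold lower (1.17 to 2.13), and in the middle 4 depth bins its log2 ratio was 0.22, in the other direction.

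The lists of smooth muscle transcription and of phenotypic switching were mixed. Fhl2, a LIM-domain cofactor, was higher (1.52, 1.16 to 1.97) and Ankrd1, a YAP target, 2.75-fold lower (1.63 to 5.05) among 18 genes of the first. Csrp2, a LIM protein of smooth muscle, had a ratio of 0.819. Among 15 switching genes, Tnfrsf11b, the decoy receptor osteoprotegerin (2.08, 1.66 to 2.58), Timp1, a metalloproteinase inhibitor (1.60, 1.09 to 2.27), and Thbs1, thrombospondin 1 (1.57, 1.33 to 1.84), were higher. Without the member with the most Thbs1 UMIs its ratio was 1.23. Lgals3, galectin 3, was 1.52-fold lower (1.01 to 2.42), and in the shallower 5 bins its log2 ratio was 0.27, in the other direction.

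Metabolic genes were close to even. The 13 mitochondrially encoded genes had 0 calls and a median log2 ratio of -0.12, and 23 nuclear genes of oxidative metabolism had 0 calls and a median of 0.02. Of 16 glycolysis genes, 1 was higher, the insulin-regulated glucose transporter Slc2a4 (17.0 against 10.6 CPM, ratio 1.61, 1.15 to 2.20), while Gapdh was at 0.952. Of 24 genes that tissue dissociation can induce, 2 were higher, Egr2 and Myc (ratio 2.08, 1.38 to 3.04), and the median log2 ratio was 0.20, with 0.02 in the shallower and 0.36 in the deeper bins. Fos had 4763 CPM against 4019, a ratio of 1.19. The part of dissociation in the other differences was not tested.

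**Figure D5:**
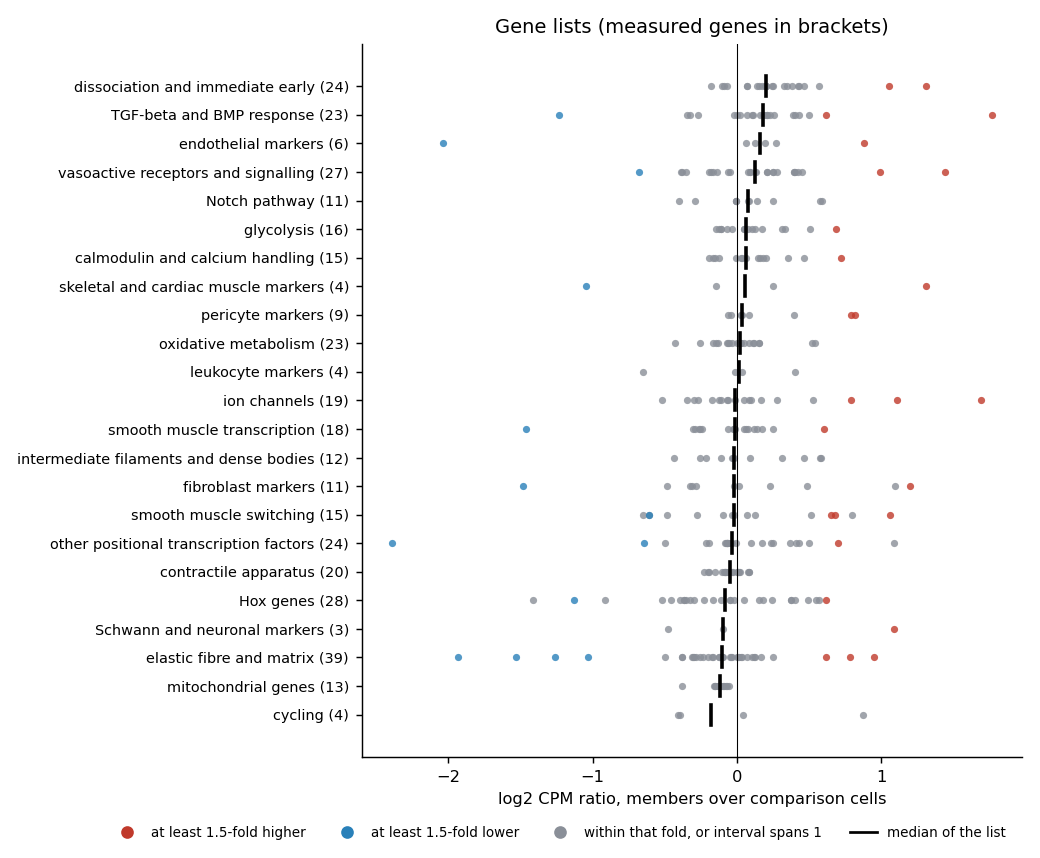
Log2 CPM ratio, members over comparison cells, of every measured gene in 23 lists, ordered by the list's median (black tick). Red and blue points met the call at 1.5-fold. Contractile genes sit tightly around 0, while the ion channel and matrix lists hold points beyond 1 or -1 on a median near 0.

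Markers of other cell types were measured in the same way. For pericytes, Kcnj8 and Art3 (ratio 1.76, 1.43 to 2.16) were higher among 9 measured markers, and the summed level of 12 markers ranged from 10 to 290 UMIs per member (median 79.5) and from 0 to 372 (median 60) per comparison cell. Most of that sum was Rgs5. Vtn and Higd1b, which mark pericytes, were at 0 in members but had only 3 and 18 UMIs in all comparison cells, so that under 1 UMI would fall to the members at the same level. Ndufa4l2, also in the list, was at 0 in members and at 59 UMIs in comparison cells, where 2.92 would fall to the members. Cells with at least 3 UMIs of Kcnj8, Abcc9, Vtn and Higd1b together were 32.3% of members and 27.8% of the others. When they were left out, 130 members and 2851 comparison cells remained, and 222 genes were higher and 236 lower. The number of genes compared in these fewer cells is not given, so the 2 counts are no shares.

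Fibroblast markers summed to 1580 CPM in members and 1654 in comparison cells, with 4 to 77 UMIs per member and 0 to 162 per comparison cell. Smoc2 was higher and Pi16 lower (2 UMIs in members and 169 in comparison cells) among 11 measured. Col1a1, a major fibrillar collagen, had a ratio of 1.01. Fibroblasts carried both genes that were higher in members, such as Gdf10 and Smoc2 (521 CPM in fibroblasts), and genes that were lower, such as Mfap5 (1334 CPM) and Pcolce2. Endothelial markers summed to 55.1 CPM in members and 46.2 in comparison cells, with 0 to 5 UMIs per member and 0 to 10 per comparison cell. Cdh5, Tie1, Cldn5 and Ptprb were at 0 in members and at 11 to 53 UMIs in all comparison cells. At that level only 0.545 to 2.62 UMIs of each would fall to the members. Of 6 measured, Esam, a junctional adhesion molecule, was higher (1.84, 1.45 to 2.31) and Pecam1 lower.

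Leukocyte markers gave 0 calls among 4, with 0 to 3 UMIs per member. Ptprc, Csf1r and Cd3e were at 0 in members, against 6 to 8 UMIs each in all comparison cells. At that level only 0.297 to 0.396 UMIs of each would fall to the members. Of 3 Schwann and neuronal markers measured, S100b was higher (23.4 against 11 CPM, ratio 2.13, 1.60 to 2.79), while Mbp and Sox10, which mark Schwann cells, were at 0 in members and at 2 and 0 UMIs in the comparison cells. For skeletal and cardiac muscle, Acta1 was higher (ratio 2.49) and Actc1 lower (1 UMI in members and 125 in comparison cells). Of the 24 Acta1 UMIs, however, 22 lay in 1 member, and without that cell the log2 ratio, at the floor of 3 UMIs, was -1.68. Cycling markers gave 0 calls among 4. Mki67 was at 0 in members and at 7 UMIs in the comparison cells, where 0.347 would fall to the members. The part of RNA from other cell types in the differences above was not tested beyond these values.

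The markers did not all fall in the same members. Of the 5 genes Pax1, Des, Kcna5, Sparcl1 and Gdf10, 14 members (7.29%) had none and 7 had all, while 1257 comparison cells (31.8%) had none. All 5 were proposed or picked as higher in members from these same data, so that gap is no independent evidence. The commonest counts were 2 genes in 62 members and 1 in 50. Pax1 and Kcna5 were found together in 14 members, where the product of their shares gives 4.98. Kcna5 and Sparcl1 were together in 29, where the product gives 19.6. Pax1 and Des were together in 18 members against a product of 19.8, and Kcna5 and Gdf10 in 20 against 15.3. These counts were not brought to 1 depth and are given as a description. The 29 members with Pax1 had a median of 4 Pcp4 UMIs and the 163 without it a median of 6.

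In the LCWE library the same rule found too few cells to compare. Its smooth muscle class held 93 cells with a median of 8547 UMIs, and 2 of them had Pcp4 UMIs, 11 in all. The 1 cell with 3 or more held 10 of these among 6175 UMIs. The share of 1.08% (exact 95% interval 0.0272 to 5.85%) covers the control share of 4.64%. The share of cells with any Pcp4 UMI, 2.15% (0.262 to 7.55%), lay below the 10.0% (9.15 to 11%) of control smooth muscle, at a lower median depth. The summed level was also lower, at 12.6 CPM (6.28 to 22.5) against 30.2 CPM (28.8 to 31.7), with all but 1 of the 11 UMIs in a single cell. Over all 93 LCWE cells, Kcna5 had 39 UMIs (44.6 CPM), Gdf10 25 (28.6 CPM) and Pcolce2 31 (35.5 CPM). Fewer cells of a type and less RNA per cell cannot be told apart from such pooled sums, and with 1 library each the injection cannot be told apart from the library.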

How the data were processed

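The deposited values were raw UMI counts of 27998 genes per cell, with no normalization, made with Cell Ranger 3.0.2 and mm10 per the submitters' processing notes. The authors' deposited table of cells gave class names, UMI totals, the percent of mitochondrial UMIs and a doublet score, whose caller is not given in the sources used here. Its broad name VSMC and fine name VSMC_1 covered the same 4234 cells of both libraries, and the broad name was used. UMI totals equalled the deposited ones in 10477 cells, and 0 of 150797228 control entries differed between the joint and single-library tables. The libraries held 62600808 (PBS) and 42275754 (LCWE) UMIs, with a median of 11252.5 and 5508 per cell. They shared 8 cell barcodes, none of a member.

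UMIs were summed over the members (2523194 UMIs) and comparison cells (50945287) and divided by those totals (CPM). Ratios carry exact conditional binomial intervals, shares Clopper-Pearson intervals and CPM Poisson intervals, at 95%. PCR copies are removed by UMIs, but free RNA and variation between mice are not covered. The intervals of ratios and CPM count each UMI as independent and so leave out variation between cells as well. Sums under 3 UMIs were raised to a floor of 3. Depth weighting used 10 bins of equal cell number. No test was run, since each group has 1 library. Genes named were the proposed markers; the 15 highest and 15 lowest called genes with at least 200 UMIs, no cell over 20% of them, without mitochondrial, ribosomal, haemoglobin, sex-linked or predicted genes; up to 4 per list from 23 lists; and the 5 genes climbing most over the Pcp4 bins. Nid1, Comp, Sorbs2, Eln and the genes listed at 0 were added after their values were seen, and a few genes that the rule names are not reported here. The members, lists and this rule were chosen with earlier results of these data known. The script was tested on simulated Poisson counts in which cells differed only in depth and in set folds for some genes. Other variation between cells was not covered by that test, nor were changed genes with few UMIs. Of 117 named genes, 116 were found in GENCODE M21. Python 3.11.15, numpy 2.4.6 and scipy 1.17.1 were used.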

Additional observations from a re-analysis of the deposited data

How the results depend on the processing

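The share of Pcp4-high cells among control smooth muscle, 4.64% as reported, was 6.35% with a threshold of 2 UMIs, 2.83% with a threshold of 5, and 3.75% with 2 or more Pcp4 UMIs in cells thinned to 5000. The 228 higher and 210 lower genes became 77 and 94 at 2-fold and 44 and 37 with the interval wholly past 1.5-fold. Under the other settings tried (thresholds, thinning, pericyte-marker, mitochondrial or doublet-score cells left out, comparison cells with 0 Pcp4 UMIs, per-cell means, other totals, depth subsets and minimum UMIs) the counts ran from 173 to 271 and from 190 to 246. The number of genes compared under each of these settings is not given, so the counts are no shares. Of the values of single named genes under these settings, 1255 stayed within the reported counting interval, 180 left it, and 7 values of called genes changed direction. These were the log2 ratio of Acta1 with a threshold of 5 (-1.09), in thinned cells (-1.34) and without 1 member (-1.68), of Igfbp2 (0.63) and Scx (0.22) in the middle depth bins, of Lgals3 in the shallower bins (0.27) and of Pax1 in the deeper bins (-0.52). For Acta1 the member left out held nearly all of its UMIs; for the other genes the cause was not tested. A further 64 values of 19 genes were not given for want of UMIs. The interval past 1.5-fold, the depth groups and the removal of single members were chosen after seeing the data. No paired analysis was possible because each group is 1 library, and for the same reason no replicate could be left out. Depth limits the low genes most, since 12 of the 15 lowest rest on 14 or fewer UMIs in members.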
